A study of Mus musculus with 8 samples.

Results

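The 10 genes described here are Tnf and genes known to respond to tumour necrosis factor (TNF) or to the transcription factor NF-kappaB. They are the cytokine gene Tnf, the TNF receptor gene Tnfrsf1b, the subunit genes Rel and Nfkb1, and the inhibitor genes Nfkbia and Tnfaip3. The others are the nuclear cofactor gene Nfkbiz and the target genes Tnfaip2, Icam1 and Bcl2a1b. The genes were chosen by name, and all 10 were found among the 28434 gene rows of both UMI tables. Leukocytes came from paw joints of C57BL/6 mice, aged 10 weeks per the study's methods, with a serum-transfer arthritis: K/BxN serum holds autoantibodies and was given on day 0, day 2 and day 9. Monocytes were transferred on day 12, when 4 mice (Mono) received monocytes of arthritic mice that had been kept with vehicle, and 4 mice (Mono+MCTR3) received such monocytes kept for 90 min with 1 nM MCTR3, a lipid mediator derived from docosahexaenoic acid. Both groups therefore had the same arthritis and the same cell transfer, and neither held a mouse without arthritis or without monocytes. On day 22 the joints were digested and live CD45+ cells were sorted, so that the transferred cells were not told apart from those of the host. CD45 is the product of Ptprc, whose level in neutrophils was 267 to 422 CPM across the mice. CPM are the UMIs of a gene per 1000000 UMIs of a cell class in 1 mouse, and a UMI marks 1 captured transcript molecule.

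After the cell filter (250 to 3000 genes, 500 or more UMIs, mitochondrial share up to 5%) 10256 of 10538 barcodes were kept, 5241 in Mono and 5015 in Mono+MCTR3. The barcode suffix separated the mice of a group and they are numbered by it, since nothing ties a suffix to one of the labelled mice. Depth ranged from 1731045 to 6009009 UMIs per mouse, and any pair of suffixes had 0 to 8 barcodes in common. Neutrophil-like cells (6973) were the largest class, followed by B-cell-like (1408), T-cell-like (763) and NK-like cells (633). MDM (351 cells), named after the study's monocyte-derived macrophages, joined a macrophage-like (302) and a nonclassical-monocyte-like cluster (49), with 6 to 91 cells per mouse. A finer clustering (resolution 1.0) split the larger of them. It gave 165 cells led by F13a1, Ms4a6c and Fn1, and 137 led by C1qb, C1qc and C1qa. MDM thus mix monocyte-like and macrophage-like cells, and their descent from monocytes was not measured. The neutrophils formed 6 clusters, called here by a leading gene: Fcnb+ (412 cells) and Ltf+ (643), which carry granule genes of young neutrophils, stefin+ (1934), Csf3r+ (2127), an interferon cluster led by Rsad2 and Isg15 (429) and Ccrl2+ (1428). A cluster of 59 cells led by muscle, basophil and haemoglobin genes stayed unnamed. Plasmacytoid-dendritic-like (49) and fibroblast-like cells (20) formed small clusters that are not among the classes compared below. The 10 genes were left out of the clustering, so the clusters were not built on the counts assigned to them. Bcl2a1a and Bcl2a1d, near-identical copies of Bcl2a1b that can take up its reads, were not left out by name. In all results, more cells that express a gene and more RNA per cell cannot be told apart from a CPM value alone.

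TNF is released by activated myeloid cells and lymphocytes and signals through receptors that switch on NF-kappaB, a family of dimers of proteins such as p50 (from Nfkb1) and c-Rel (Rel). At rest the dimers are held in the cytoplasm by IkappaB proteins, of which IkappaB-alpha (Nfkbia) is degraded on signalling. NF-kappaB then induces its own brakes: it resynthesises IkappaB-alpha, and it induces A20 (Tnfaip3), a ubiquitin-editing enzyme that shuts signalling off upstream. It also induces IkappaB-zeta (Nfkbiz), a nuclear cofactor, and genes for adhesion and survival. TNF is a main driver of inflammatory arthritis, and blocking it is an established treatment of the disease.

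RefSeq upstream sequences (250 bases before the gene start, GRCm38.p6) were at hand for 8 of the 10 genes, all but Nfkbiz and Nfkb1. The consensus site of NF-kappaB, the kappaB consensus, was searched on both strands. It was found before 3 of these 8 genes, Tnfaip3, Nfkbia and Rel, and before 1204 of all 27025 genes with such a sequence (4.46%), where a gene counts if any of its starts has a match. The 3 sequences are shown because they hold such a match, in capitals, in genes that form the core of the feedback loop. They are read 5′ to 3′ on the strand of the gene, which is the minus strand for all 3. Tnfaip3 (chr10:19015411-19015660) holds 2 matches, which begin 125 and 12 bases before the start, Nfkbia (chr12:55492648-55492897) holds 1 at 29 bases, and Rel (chr11:23770970-23771219) holds 2 that overlap, at 92 and 91 bases. A second listed start of Tnfaip3 held no match. For the other 5 genes no match says only that the consensus is not in this window.
Tnfaip3 upstream region: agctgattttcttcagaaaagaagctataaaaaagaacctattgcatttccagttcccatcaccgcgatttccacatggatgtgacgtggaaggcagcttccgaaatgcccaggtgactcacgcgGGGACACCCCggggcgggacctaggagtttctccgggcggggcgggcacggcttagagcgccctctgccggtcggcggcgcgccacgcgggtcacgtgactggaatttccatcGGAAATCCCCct
Nfkbia upstream region: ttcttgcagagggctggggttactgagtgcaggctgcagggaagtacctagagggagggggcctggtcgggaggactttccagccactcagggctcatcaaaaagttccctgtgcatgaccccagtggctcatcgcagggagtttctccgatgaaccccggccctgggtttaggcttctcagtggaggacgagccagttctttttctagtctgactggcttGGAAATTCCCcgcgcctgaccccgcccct
Rel upstream region: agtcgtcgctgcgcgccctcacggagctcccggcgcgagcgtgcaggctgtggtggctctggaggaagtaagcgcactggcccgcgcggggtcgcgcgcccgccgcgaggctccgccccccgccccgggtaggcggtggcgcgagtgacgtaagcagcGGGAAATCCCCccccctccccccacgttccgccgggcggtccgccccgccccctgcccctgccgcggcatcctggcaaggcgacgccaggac

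Across the neutrophil clusters, all 10 genes had their highest mean level in the Ccrl2+ cluster. This cluster was also led by Clec4n, Csf1, Gadd45b, Bcl2a1a and Il1rn, and, although they had not been used to form it, by Tnf and Tnfaip2. The levels by cluster are a description without a test, because the genes used for clustering can be correlated with these 10. With a coarser clustering (resolution 0.3) the Ccrl2+ cells were not a cluster of their own but part of 1 cluster of 3960 cells that also took in the Csf3r+ and interferon cells. Tnf itself (chr17:35199381-35202007) ranged in the Ccrl2+ cluster from 45.4 CPM over a median of 131 to 959 in the 8 mice, with a mean of 261 ± 308 (SD). The interferon cluster came next with 55.0 ± 27.0 and the Csf3r+ cluster with 52.2 ± 26.1, and the young Ltf+ cluster was lowest with 22.2 ± 10.97 (SD, n = 8 mice). Tnf was higher in Ccrl2+ than in interferon cells in 7 of 8 mice, although the ranges overlapped. The receptor gene Tnfrsf1b (chr4:145213463-145246870), which encodes TNF receptor 2, was the only 1 of the 10 whose Ccrl2+ values lay wholly above those of the cluster ranked after it. It spanned 201 to 270 CPM there (median 224), against 89.8 to 159 in Csf3r+ cells, while 1 mouse of the third-ranked interferon cluster reached 217. It was 47.4 ± 9.53 in stefin+ cells and 7.54 ± 5.74 in Fcnb+ cells (SD, n = 8).

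The inhibitor genes and the cofactor gene Nfkbiz shared the top cluster with Tnf, and below it each had its lowest level in the Fcnb+ cluster. Nfkbia (chr12:55489410-55492647) spanned 2621 to 6996 CPM in the Ccrl2+ cluster with a median of 4341, and its mean went from 4403 ± 1502 there over 2140 ± 895 in interferon and 1850 ± 545 in Csf3r+ cells to 698 ± 167 in stefin+ cells. It was 321 ± 87.4 in Ltf+ and 297 ± 118 in Fcnb+ cells (SD, n = 8), which did not differ beyond their spread. Tnfaip3 (chr10:19000910-19015657) spanned 130 to 322 CPM in Ccrl2+ cells with a median of 226. Its mean was 223 ± 57.3 there, 121 ± 43.4 in Csf3r+, 111 ± 36.6 in interferon and 30.4 ± 16.2 in Fcnb+ cells (SD, n = 8). Nfkbiz (chr16:55811375-55838899) had the flattest course of the 3, with 489 ± 201 CPM in Ccrl2+, 290 ± 119 in Csf3r+, 169 ± 43.8 in stefin+ and 91.7 ± 61.4 in Fcnb+ cells (SD, n = 8). Each of these 3 genes was higher in Ccrl2+ cells than in the next cluster in 8 of 8 mice, with overlapping ranges.

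Among the targets, Tnfaip2 (chr12:111442469-111455018) is a gene found by its induction by TNF. It spanned 658 to 1045 CPM in Ccrl2+ cells with a median of 857, and its mean fell from 840 ± 143 over 533 ± 136 in interferon, 412 ± 71.5 in Csf3r+ and 139 ± 28.5 in stefin+ cells to 32.6 ± 15.3 in Fcnb+ cells (SD, n = 8). Bcl2a1b (chr9:89199209-89207827), a survival gene of the Bcl2 family, spanned 216 to 1018 CPM in Ccrl2+ cells with a median of 514, and lay at 154 ± 93.1 in interferon and 24.1 ± 11.2 in Fcnb+ cells (SD, n = 8). Icam1 (chr9:21015985-21028817), the adhesion molecule that leukocyte integrins bind, was low in all other clusters. Its Ccrl2+ values ran from 22.7 over a median of 38.9 to 192 CPM, against 13.1 ± 12.6 in interferon cells and 0.75 ± 1.40 in Ltf+ cells (SD, n = 8). The subunit genes varied least, Nfkb1 less than Rel. Rel (chr11:23736847-23770970) went from 66.2 ± 13.5 CPM in Ccrl2+ over 45.6 ± 14.3 in Csf3r+ to 17.0 ± 6.13 in Ltf+ cells (SD, n = 8). Its Ccrl2+ range (43.3 to 81.8) did not overlap its Ltf+ range (6.93 to 27.2). Nfkb1 (chr3:135584655-135691547) had 46.2 ± 21.0 CPM in Ccrl2+ and 28.2 ± 10.6 in Fcnb+ cells (SD, n = 8). All neighbouring clusters in the order of Nfkb1 overlapped.

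**Figure D1:**
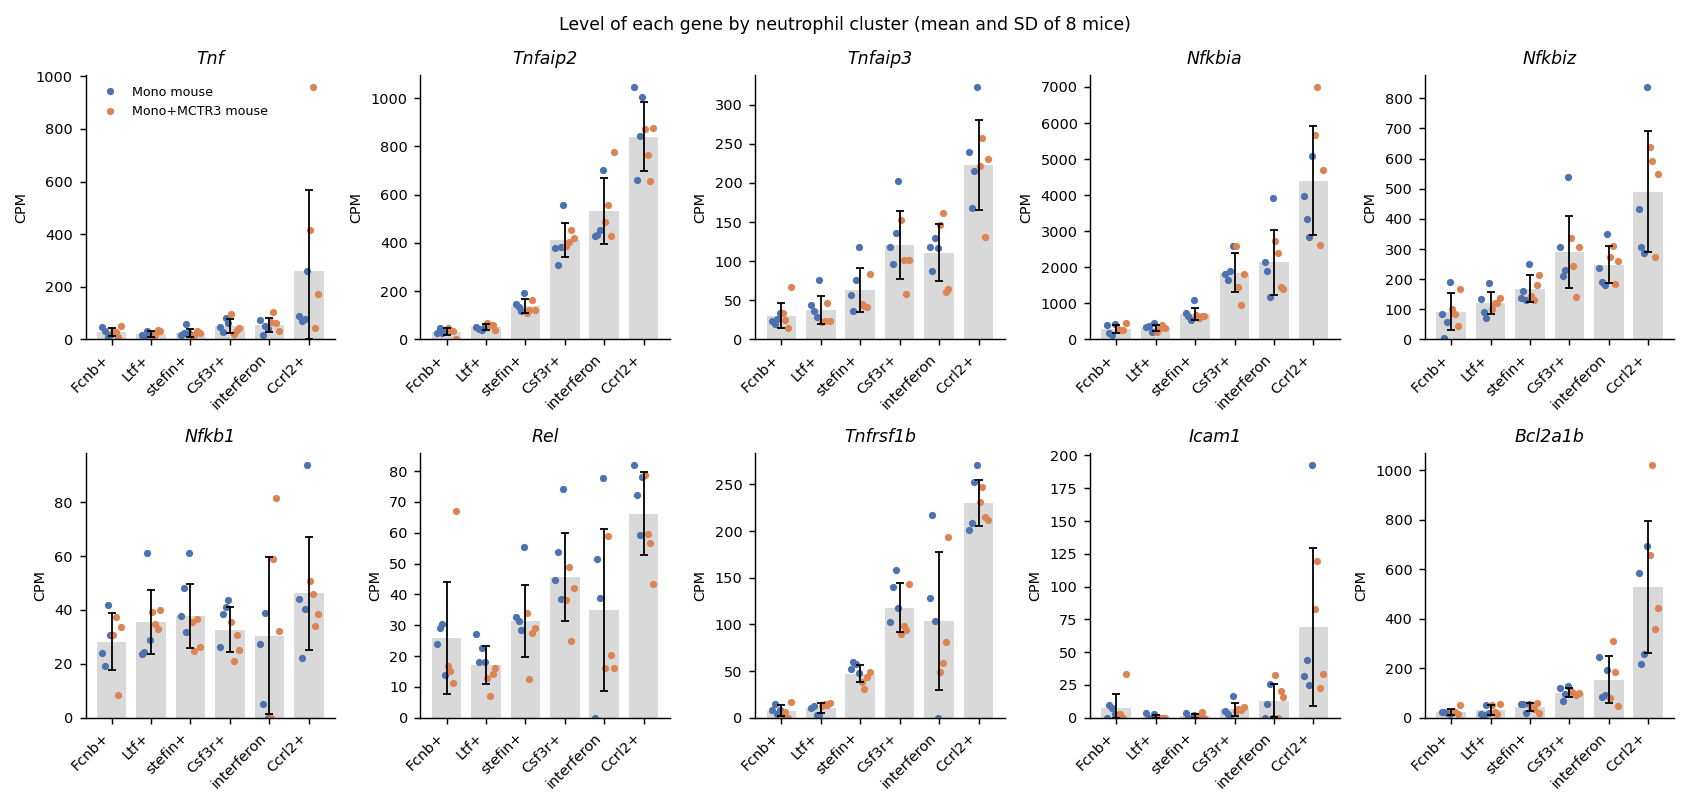
Level of the 10 genes (CPM, vertical axes, each from 0) in the 6 neutrophil clusters (horizontal axes). Points are mice, bars the mean and lines the SD over 8 mice; the Ccrl2+ bar is the tallest in every panel, and 1 Mono+MCTR3 mouse stands at 959 CPM for Tnf.

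Across the cell classes the genes parted. Tnf was highest in neutrophils (32.0 to 81.6 CPM, median 54.3) and MDM (0 to 103 CPM), lower in T-cells (19.1 ± 16.5), and lowest in NK cells (6.12 ± 5.31) and B-cells (3.96 ± 8.07, SD, n = 8 mice). Nfkbia, Nfkbiz, Tnfaip2 and Bcl2a1b also had their highest mean in neutrophils, at 1331 ± 324, 214 ± 68.7, 277 ± 63.1 and 108 ± 15.3 CPM (SD, n = 8). Of these, Tnfaip2 was close to a myeloid gene in these cells, since MDM held 101 ± 38.3 CPM and the 3 lymphocyte classes had means of 4.67 to 10.5. Tnfaip3 had another order: it was highest in NK cells (305 ± 56.2) and T-cells (214 ± 36.2), each above neutrophils (87.3 ± 26.0) with no overlap of the mice (SD, n = 8). Icam1 was highest in NK cells as well, where the mice lay between 79.5 and 186 CPM, against 20.9 to 61.2 in T-cells and 5.55 to 25.2 in neutrophils.

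Rel was highest in B-cells, in which c-Rel is needed for activation, with 109 to 245 CPM and no overlap with MDM (19.5 to 92.6). Nfkb1 was lowest in neutrophils, at 29.7 to 47.7 CPM, and all 8 mice lay above that range in T-cells (61.2 to 106). B-cells (123 ± 33.2) and MDM (119 ± 55.7) did not differ in Nfkb1 beyond their spread (SD, n = 8). The plasmacytoid-dendritic-like cells, with 3 to 19 per mouse, held 170 ± 90.2 CPM of Nfkb1 and 89.7 ± 63.2 of Rel (SD, n = 8). Tnfrsf1b had similar means in MDM (109 ± 25.0), NK cells (99.9 ± 21.2) and neutrophils (79.5 ± 29.8), and its lowest in B-cells (13.9 ± 5.07, SD, n = 8). The MDM values of Mono+MCTR3 mice 3 and 4 rest on 8 and 6 cells.

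**Figure D2:**
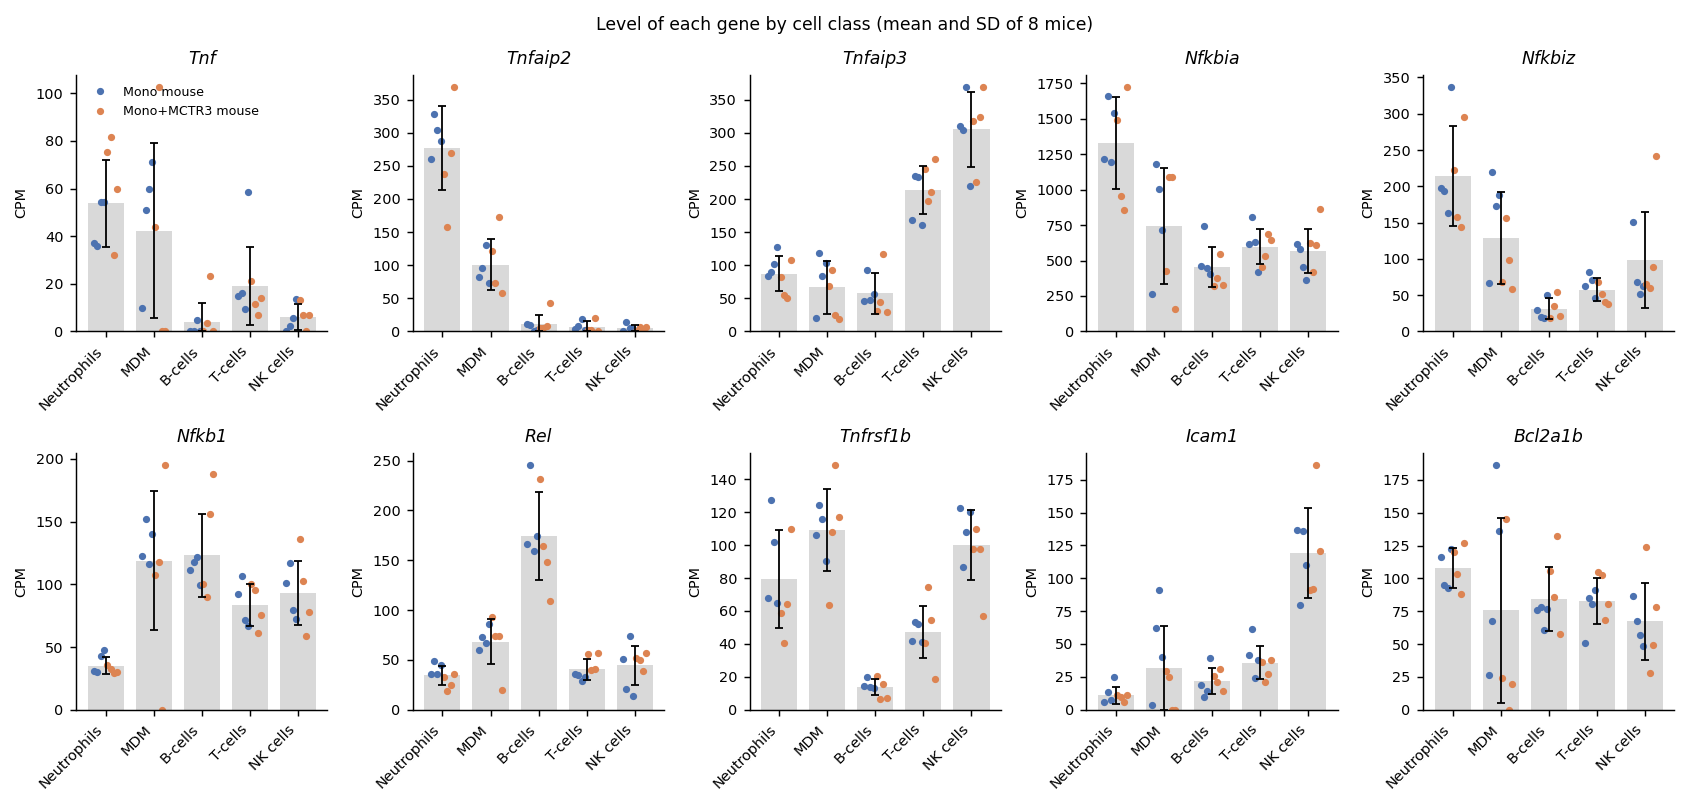
Level of the 10 genes (CPM, vertical axes, each from 0) in neutrophils, MDM, B-cells, T-cells and NK cells. Points are mice, bars the mean and lines the SD over 8 mice; the tallest bar is neutrophils for 5 genes, NK cells for Tnfaip3 and Icam1, B-cells for Rel and Nfkb1 and MDM for Tnfrsf1b.

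A Tnf UMI was found in 513 of 6973 neutrophils (7.36%), 54 of 351 MDM (15.4%), 35 of 763 T-cells (4.59%), 11 of 633 NK cells (1.74%) and 7 of 1408 B-cells (0.497%). B-cells, which can make TNF, had the lowest share of these classes, at a median of 2249 UMIs per cell. That share was picked as the lowest, so it is not an independent level of background. Neutrophils had a median of 1722 UMIs. The B-cells held 8 Tnf UMIs, and 5 once called doublets were removed. The neutrophil share was 4.67% to 9.96% across the mice. Among clusters the share was 16.4% ± 11.95 in Ccrl2+ cells and 13.2% ± 7.89 in Fcnb+ cells (SD, n = 8). These clusters differ in depth, with a median of 1290 UMIs per cell in Ccrl2+ and 6336 in Fcnb+. When every cell was thinned to 1000 UMIs, which left out 602 neutrophils below that number, the Ccrl2+ share was 13.2% ± 10.6 and the Fcnb+ share 1.82% ± 1.20, the lowest of the 6 clusters (SD, n = 8). The Csf3r+ share was then 4.10% ± 1.97 and that of MDM 2.58% ± 2.59 (SD, n = 8), and no B-cell of 1403 held a Tnf UMI. Of the Tnf+ neutrophils 37.8% ± 12.7 lay in the Ccrl2+ cluster, which held 20.4% ± 7.55 of all neutrophils (SD, n = 8), while stefin+ cells made up 15.8% ± 6.18 of Tnf+ and 27.9% ± 9.21 of all neutrophils.

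**Figure D3:**
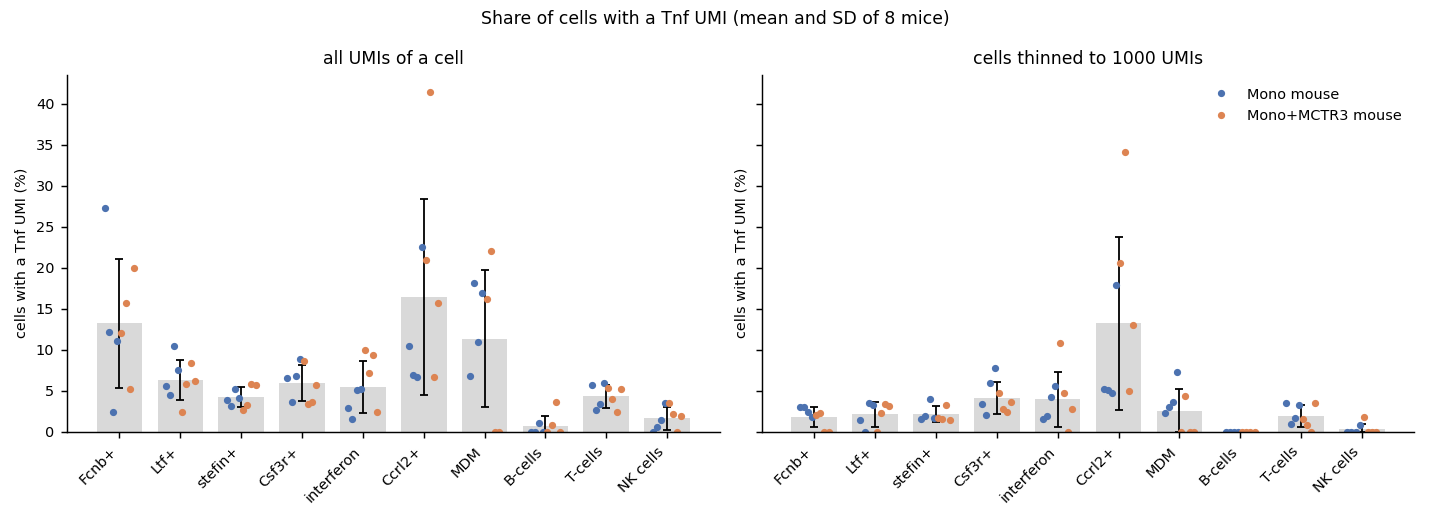
Share of cells with a Tnf UMI (percent, vertical axis) by neutrophil cluster and cell class, with all UMIs (left) and with each cell thinned to 1000 UMIs (right). Points are mice, bars the mean and lines the SD over 8 mice; the Fcnb+ bar is 13.2% on the left and 1.82% on the right, and the Ccrl2+ bar 16.4% and 13.2%.

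To ask which of the genes went with Tnf from cell to cell, Tnf+ neutrophils (513, 45 to 111 per mouse) were compared with Tnf- neutrophils of the same mouse (6460), with UMIs summed per mouse and the mouse as a block. In Tnf+ cells 6 of the 9 other genes were higher: Icam1, Nfkbia, Tnfaip3, Nfkbiz, Bcl2a1b and Tnfaip2. Rel, Nfkb1 and Tnfrsf1b did not pass the test. Over all genes 75 of 3523 tested passed (2.13%), and 59 were higher in Tnf+ cells (1.67%). Icam1 met the filter on low counts (14.1 CPM in at least 8 of the 16 sums) only through the Tnf+ cells, with 8 of 8 Tnf+ and 1 of 8 Tnf- sums, so a gene of its kind could be tested only if it was high there. The other 8 genes met it by the Tnf- sums alone, and 5 of these 8 were higher, against 46 of 2793 of all genes that did so (1.65%). Adjusted p-values are from edgeR's quasi-likelihood test over all genes tested. Their ranks by size of increase, where 1 is the largest of 3523, were 9 for Nfkbia, 10 for Tnfaip3, 16 for Nfkbiz, 19 for Bcl2a1b and 69 for Tnfaip2.

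Icam1 ranged from 3.64 over a median of 6.42 to 17.4 CPM in Tnf- cells and from 18.0 over 43.1 to 97.3 in Tnf+ cells. The ranges did not overlap, and the fitted difference was 2.65 ± 0.27 (log2, SE, adjusted p = 1.15e-06). Icam1 rests on 172 UMIs in all neutrophils and was the member with the least counts among those called. With no filter on low counts its log2 fold change was 2.43 and it was called as well. Nfkbia ranged from 608 over a median of 1182 to 1557 CPM in Tnf- and from 2400 over 3569 to 3973 in Tnf+ cells. Every Tnf+ value lay above every Tnf- value, and the fitted difference was 1.58 ± 0.13 (log2, SE, adjusted p = 8.27e-08). Tnfaip3 ranged from 40.6 over a median of 81.6 to 109 CPM in Tnf- and from 132 over 228 to 303 in Tnf+ cells. It was likewise separated in all mice, by 1.55 ± 0.15 (log2, SE, adjusted p = 7.58e-07). Nfkbiz went from a median of 181 CPM (126 to 281) in Tnf- to 439 (317 to 853) in Tnf+ cells without overlap (log2 fold change 1.34 ± 0.11, SE, adjusted p = 8.27e-08).

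Bcl2a1b had a median of 99.7 CPM (67.1 to 115) in Tnf- and 267 (72.9 to 403) in Tnf+ cells, and it was higher in 7 of 8 mice with overlapping ranges. Its log2 fold change (1.26 ± 0.21, SE) had an adjusted p = 0.000991. Bcl2a1b has near-identical copies, and the transcripts of Bcl2a1a and Bcl2a1d matched the last 200 bases of its own at 99% and 99.5%. Its reads can therefore be split among them and the level of each copy is uncertain. Both copies were higher in Tnf+ cells too, with log2 fold changes of 1.83 ± 0.27 for Bcl2a1a (8 of 8 mice) and 1.91 ± 0.36 for Bcl2a1d (6 of 8 mice, SE, adjusted p = 0.000197 and 0.00351). Neither copy met the filter on low counts by its Tnf- sums alone, so these calls of the copies are a description. Tnfaip2 had a median of 261 CPM (136 to 354) in Tnf- and 447 (275 to 658) in Tnf+ cells, higher in 8 of 8 mice, and its log2 fold change was 0.78 ± 0.13 with an adjusted p = 0.00114 (SE).

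The receptor gene and the subunit genes missed the threshold. Tnfrsf1b had a median of 67.3 CPM in Tnf- and 109 in Tnf+ cells, higher in 6 of 8 mice, with a log2 fold change of 0.52 ± 0.23 (SE) and an adjusted p = 0.366. Rel had 33.2 and 46.3 CPM (0.33 ± 0.26, SE, adjusted p = 0.729) and Nfkb1 32.7 and 31.2 CPM (-0.04 ± 0.26, SE, adjusted p = 0.994). In the plot of Tnf- against Tnf+ cells the lines of these 3 genes cross, while those of the inhibitors and of Nfkbiz rise in every mouse.

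**Figure D4:**
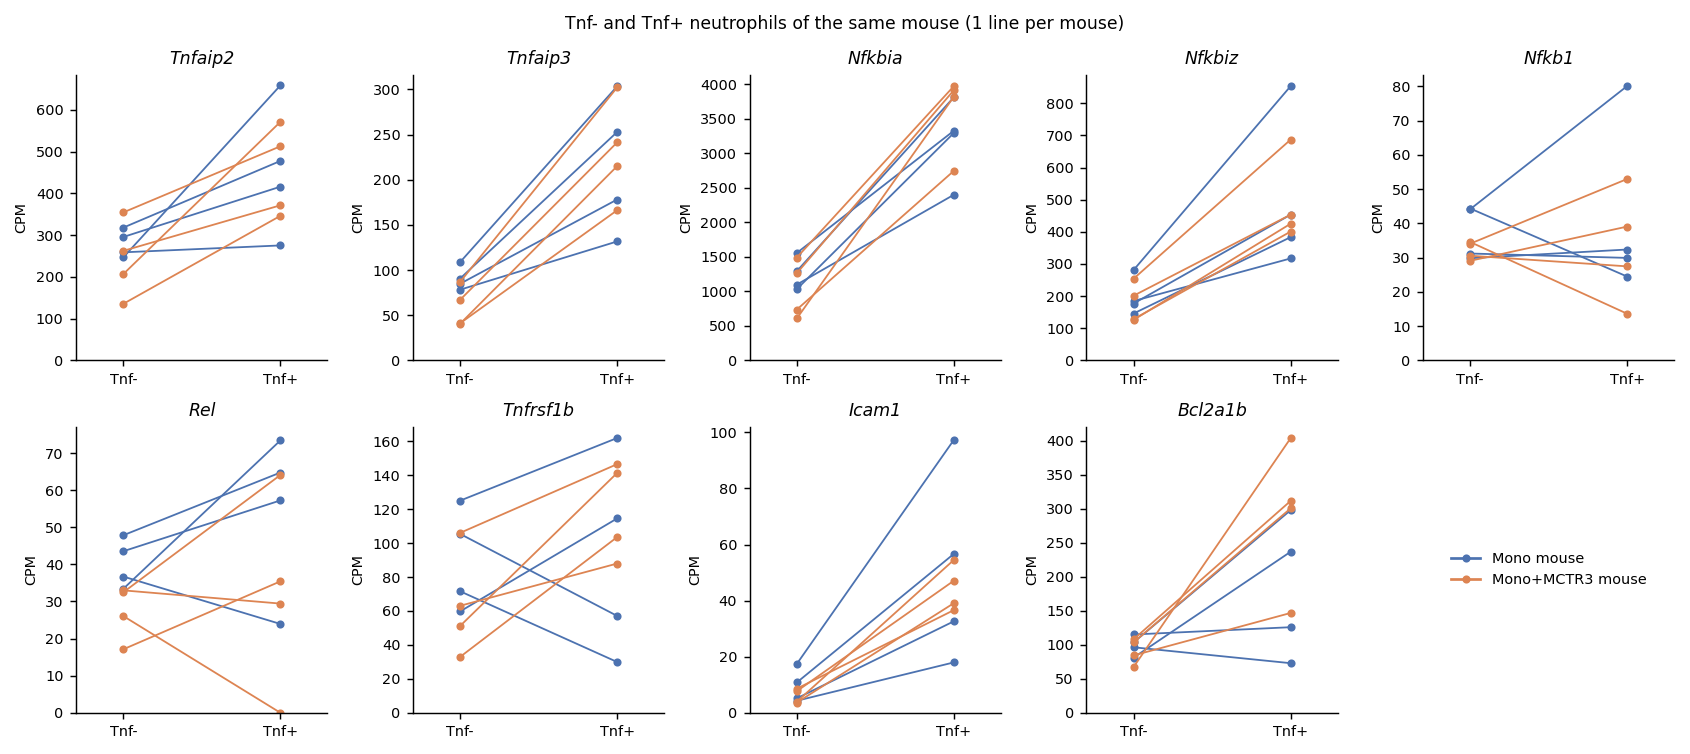
Level (CPM, vertical axes, each from 0) of the 9 other genes in Tnf- and Tnf+ neutrophils. Each line joins both values of 1 mouse; the lines rise in 8 of 8 mice for Tnfaip2, Tnfaip3, Nfkbia, Nfkbiz and Icam1, in 7 for Bcl2a1b, and in 6, 5 and 4 for Tnfrsf1b, Rel and Nfkb1.

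A deeper cell is more likely to show a Tnf UMI, and Tnf+ cells lay more often in the Ccrl2+ cluster. The comparison was therefore repeated with depth held and, in separate fits, with cluster held. No fit held both. With clusters matched, Tnf+ cells had a median of 1870 UMIs and Tnf- cells 1526.5. With all cells thinned to 1000 UMIs, 5 of 8 genes tested were higher (Icam1 was too low to be tested). The log2 fold changes were then 1.75 for Nfkbia, 1.66 for Tnfaip3, 1.58 for Bcl2a1b, 1.55 for Nfkbiz and 1.04 for Tnfaip2. Against Tnf- cells drawn to the same make-up of clusters, the same 6 genes passed, with Icam1 at 1.71, Tnfaip3 at 1.52, Nfkbia at 1.31, Nfkbiz at 1.18, Bcl2a1b at 0.66 and Tnfaip2 at 0.56. Within the Ccrl2+ cluster alone, 4 of 7 genes tested passed: Icam1 (1.95), Nfkbia (1.11), Tnfaip3 (1.09) and Nfkbiz (0.94). Tnfaip2 (0.48, adjusted p = 0.11) and Bcl2a1b (0.53, adjusted p = 0.222) did not pass there. Within the Csf3r+ cluster 4 of 6 passed, namely Tnfaip3 (1.72), Nfkbia (1.36), Nfkbiz (1.25) and Tnfaip2 (0.71), and Bcl2a1b did not (0.78, adjusted p = 0.521).

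Per cell the same contrast was seen at 1000 UMIs. An Nfkbia UMI was found in 87.2% ± 6.79 of Tnf+ and 44.1% ± 7.25 of Tnf- neutrophils, and an Nfkbiz UMI in 47.3% ± 13.9 and 17.0% ± 4.15 (SD, n = 8 mice). For Tnfaip3 the shares were 24.4% ± 7.26 and 8.09% ± 2.18, and for Icam1 7.78% ± 4.76 and 0.812% ± 0.571 (SD, n = 8). Nfkb1 was found in 3.21% ± 3.18 and 3.16% ± 0.851 of these cells (SD, n = 8). In the Ccrl2+ cluster an Nfkbia UMI was present in 96.9% ± 4.48 of Tnf+ and 74.9% ± 11.1 of Tnf- cells, while Tnfaip2 was present in 48.3% ± 16.8 and 46.8% ± 4.65 (SD, n = 8). Icam1 was present there in 17.7% ± 11.4 of Tnf+ and 3.38% ± 3.59 of Tnf- cells. In the Csf3r+ cluster, where Icam1 was not tested, it was present in 0% of 71 Tnf+ cells and 0.475% ± 0.342 of Tnf- cells (SD, n = 8).

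Other genes of the pathway were read from lists of known inducible targets, negative regulators, subunits and receptor components. These lists were chosen with earlier results of these data known, so the counts from them are a description. Ccrl2, Gadd45b and Il1rn of the inducible targets also led the Ccrl2+ cluster. Among inducible targets 13 of 18 tested were higher in Tnf+ neutrophils, against 1.67% of all genes, and none was lower. Of the 16 that met the filter by Tnf- sums alone 11 were higher; the median log2 fold change of the list was 0.98, against 0.00 over all genes. The largest were the Bcl2a1 copies, the chemokine-receptor-like gene Ccrl2 (1.66 ± 0.15) and the chemokine gene Ccl3 (1.66 ± 0.24, SE). Cxcl2, Ccl4, Sod2 and Gadd45b were among the others. The same share of 1.67% is the background of each list that follows. Of the negative regulators 2 of 10 were higher, Traf1 (1.72 ± 0.30) and Zfp36 (0.66 ± 0.11, SE), which encodes the protein that destabilises the mRNA of Tnf. Among the negative regulators that met the filter by Tnf- sums alone, 1 of 7 was higher. Of 7 further subunits and inhibitors, Nfkbib (0.79 ± 0.20) and Nfkbid (0.67 ± 0.13, SE) were higher, and both were among the 4 that met the filter by Tnf- sums alone. Of 7 receptor and IKK complex genes tested only Birc3 (0.75 ± 0.16, SE), itself an NF-kappaB target, was higher, and the median of this list was -0.30. Among immediate-early and heat shock genes that tissue digestion can raise, 1 of 12 was higher, Junb (0.49 ± 0.10, SE), with a list median of 0.17; the part of digestion in the result was not tested.

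Outside the lists, Maff, a small Maf transcription factor gene, had the largest increase among genes with at least 200 UMIs (1.92 ± 0.32, SE, adjusted p = 0.000995). At the other end stood 4 haemoglobin genes, from -4.77 ± 0.39 for Hba-a2 to -4.11 ± 0.47 for Hbb-bs (SE). Of all haemoglobin UMIs in neutrophils 95.5% lay in 6 cells, none of them Tnf+. Without these cells the same 6 of the 9 genes passed, and 71 genes in all. The next were BC100530 (-0.995 ± 0.25), a stefin-family gene that leads the stefin+ cluster, and Med31 (-0.97 ± 0.20, SE).

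In MDM, 5 mice held at least 5 Tnf+ cells, and 51 Tnf+ were compared with 242 Tnf- cells. Here 4 of 8 genes tested were higher, against 142 of 1868 of all genes called in either direction (7.6%) and 102 higher (5.46%). They were Tnfaip3, from a median of 49.9 to 349 CPM (log2 fold change 2.69 ± 0.35, SE, adjusted p = 0.00124), Bcl2a1b, from 77.1 to 295 (2.47 ± 0.30, SE, adjusted p = 0.000915), Nfkbiz, from 113 to 552 (2.20 ± 0.31, SE, adjusted p = 0.0021), and Nfkbia, from 596 to 2151 (2.15 ± 0.19, SE, adjusted p = 0.000143). For these 4 genes the values of Tnf+ and Tnf- MDM did not overlap in any mouse. Of the 4, Nfkbia alone met the filter (68.9 CPM in at least 5 of the 10 sums) by its Tnf- sums, while Tnfaip3, Nfkbiz and Bcl2a1b needed the Tnf+ sums to be tested, so that the count of 4 is a description. Tnfaip2 (0.88, adjusted p = 0.21), Nfkb1 (0.57, adjusted p = 0.327), Rel (0.55, adjusted p = 0.336) and Tnfrsf1b (0.52, adjusted p = 0.416) missed the threshold, and Icam1 was too low to be tested. Among inducible targets 7 of 16 were higher, including the chemokine gene Cxcl2 (2.74 ± 0.61) and Gadd45b (2.41 ± 0.41, SE). Of the 14 targets that met the filter by Tnf- sums alone 5 were higher, against 61 of 1373 of all genes that did so (4.44%). Of the digestion genes 1 of 14 was higher, Dusp1 (0.84 ± 0.18, SE). Unlike that of neutrophils, the MDM comparison was not repeated with depth or cluster held. Over all MDM, Tnf+ cells had a median of 6918.5 UMIs and Tnf- cells 6261. When cells were thinned to 1000 UMIs, 14 of 349 MDM held a Tnf UMI. The part of depth and of cell type in the MDM result was not tested.

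The study compared Mono+MCTR3 with Mono to learn how the leukocytes of the joint differ after transfer of MCTR3-reprogrammed monocytes. None of the 10 genes passed the test (edgeR's quasi-likelihood test, adjusted p under 0.05) in any class or neutrophil cluster in which it was tested. In neutrophils 0 of 5482 genes passed (0%) and 266 had an unadjusted p under 0.05, among them 1 of the 10. DESeq2 and edgeR's likelihood ratio test each called 1 gene, and none of the 10.  The gene with an unadjusted p under 0.05 was Rel, with 35.5, 48.9, 36.3 and 44.9 CPM in Mono mice 1 to 4 and 32.7, 19.1, 24.5 and 35.5 in Mono+MCTR3 mice 1 to 4. Every Mono value lay above every Mono+MCTR3 value, the closest pair by less than the rounding of these values, and the fitted difference was -0.57 ± 0.19 (log2, SE, adjusted p = 0.94).

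Tnf in neutrophils was 37.2, 35.8, 54.2 and 54.4 CPM in Mono and 75.4, 81.6, 32.0 and 59.7 in Mono+MCTR3 mice. Mono+MCTR3 mice held the 3 highest values and also the lowest (log2 fold change 0.53 ± 0.29, SE, adjusted p = 0.94). The inhibitor Tnfaip3 was 83.3, 90.5, 102 and 128 CPM in Mono and 82.0, 54.6, 50.8 and 107 in Mono+MCTR3 (-0.45 ± 0.23, SE, adjusted p = 0.94). The groups overlapped for it, as they did for Tnfrsf1b (-0.40 ± 0.26) and Icam1 (-0.43 ± 0.45, SE). The other 5 genes lay between -0.19 and 0.07, and 2 of the 10 genes had a positive value, against 2826 of all 5482. The median of the 10 was -0.18, against 0.01 over all genes. The share of neutrophils with a Tnf UMI was 6.88% ± 2.08 in Mono mice and 8.004% ± 1.96 in Mono+MCTR3 mice (SD, n = 4 each, two-sided exact permutation test, p = 0.429). At 1000 UMIs it was 4.10% ± 1.72 against 4.94% ± 1.49 (SD, n = 4 each, two-sided exact permutation test, p = 0.486).

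In the Ccrl2+ cluster Tnf was 88.1, 70.1, 77.9 and 260 CPM in Mono mice 1 to 4 and 417, 959, 45.4 and 173 in Mono+MCTR3 mice 1 to 4. Mono+MCTR3 thus held both the highest and the lowest value. The fitted difference was 1.91 ± 0.69 (log2, SE, adjusted p = 0.895), and 0.94 without Mono+MCTR3 mouse 2, with adjusted p-values of 0.303 to 0.99966 over the fits that left out a mouse. That mouse had 209 Tnf UMIs in 56 Tnf+ Ccrl2+ cells, up to 26 in a cell, and its 5 highest cells held 39.7% of them. Its share of Tnf+ cells in the cluster was 41.5%, against 6.72% to 21.0% in the other Mono+MCTR3 mice and 6.69% to 22.6% in Mono. Nfkbia was 3991, 3328, 2849 and 5075 CPM in Mono and 5675, 6996, 2621 and 4691 in Mono+MCTR3 (0.47 ± 0.27, SE, adjusted p = 0.934). Mono+MCTR3 mouse 2 was also the highest for Nfkbia and, at 1018 CPM, for Bcl2a1b (0.64 ± 0.40, SE, adjusted p = 0.945). Icam1 and Nfkb1 were too low in this cluster to be tested. Among 18 inducible targets tested in it 16 had a value above 0, against 980 of all 1919 genes tested. The median of the list was 0.42, against 0.008 over all genes, and none passed. The list was chosen with earlier results of these data known, so this count is a description. Of 1919 genes 0 passed (0%), and 88 had an unadjusted p under 0.05. The same was true of Ltf+ (0 of 1717, 69 unadjusted) and Csf3r+ cells (0 of 2476, 173 unadjusted), and 1 of 2413 genes (0.0414%), not among the 10, passed in stefin+ cells. Of the 10 genes 5 were tested in Ltf+ cells and 9 each in Csf3r+ and stefin+ cells. The Fcnb+ and interferon clusters had a mouse with under 20 cells and were not tested.

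In MDM none of 9 genes tested passed, and neither did any of 2871 genes (0%, 172 with an unadjusted p under 0.05; DESeq2 called 2 and the likelihood ratio test 17, none of the 10). The largest difference was in Nfkbiz, with 66.3, 220, 172 and 188 CPM in Mono and 68.2, 157, 99.1 and 58.5 in Mono+MCTR3 mice (-0.53 ± 0.38, SE, adjusted p = 0.916). Tnf was 9.94, 50.8, 59.7 and 71.0 CPM in Mono and 43.9, 103, 0 and 0 in Mono+MCTR3, where both zeros come from the mice with 8 and 6 MDM. Its fitted log2 fold change was 0.42 ± 0.56 (SE, adjusted p = 1), although its plain mean was lower in Mono+MCTR3, and it was -0.86 without Mono+MCTR3 mouse 2. Tnf UMIs were found in 13.2% ± 5.30 of the MDM of Mono mice and 9.53% ± 11.3 of those of Mono+MCTR3 mice (SD, n = 4 each, exact permutation p = 0.543). In the same cells the summed level of the 14 digestion and stress genes was 12090 to 17750 CPM in Mono and 8332 to 11930 in Mono+MCTR3 (exact permutation p = 0.0286, the smallest that 4 against 4 mice allow), with 1 of 14 higher and none at 0. That of 8 nonclassical monocyte markers was 775 to 1568 against 488 to 721 CPM (0 of 8 higher, exact permutation p = 0.0286). The part of both in the MDM values was not tested. Both p-values are unadjusted, and the same test was run on every cell type marker list in MDM and in neutrophils. They were the smallest of all these lists, and every other list had an exact permutation p of 0.0857 or more. In neutrophils the digestion and stress genes had an exact permutation p = 0.629.

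None of the genes tested passed in B-cells (0 of 3935 genes, 193 unadjusted), T-cells (0 of 3435, 178 unadjusted) or NK cells (0 of 2230, 110 unadjusted). A test of whether the effect of Mono+MCTR3 differed between MDM and neutrophils gave 0 of 6545 genes (309 unadjusted), and for Tnf a difference of -0.35 ± 0.48 (SE, adjusted p = 0.991).

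**Figure D5:**
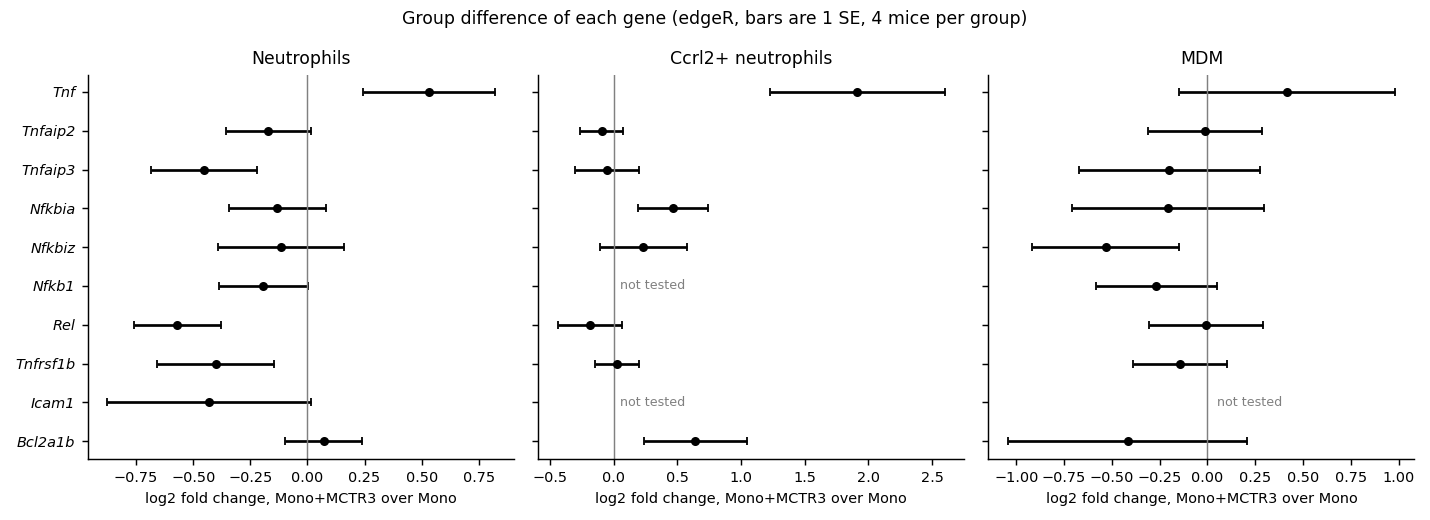
Log2 fold change of Mono+MCTR3 over Mono (horizontal axis, points with 1 SE from edgeR, 4 mice per group) for 10 genes in all neutrophils, 8 in Ccrl2+ neutrophils and 9 in MDM, the others being marked as not tested. The axes differ in range; the largest value is Tnf in Ccrl2+ neutrophils at 1.91, and no gene passed the test.

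Genes with a pattern like that of Tnf were sought over 11 classes and clusters, by Pearson's r of log2(mean CPM + 10) among 7418 genes that reached 20 CPM in at least 1 of them. The points share mice and libraries, so r is a description only. The closest were Cd80, a costimulatory ligand gene (r = 0.945), Bcl2a1a (0.919), C130050O18Rik (0.918), Gm17056 (0.908) and Tgm2, the gene of tissue transglutaminase (0.908). Among the 10 genes, Nfkbiz (0.902), Tnfaip2 (0.887), Nfkbia (0.836) and Bcl2a1b (0.772) were closest to Tnf. Tnfrsf1b (0.676) and Tnfaip3 (0.368) were further off, the latter being high in NK cells and T-cells, and Icam1 (0.122), Rel (-0.236) and Nfkb1 (-0.577) did not follow it.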

How the data were processed

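Single cell RNA sequencing (10x Chromium 3′) of sorted joint leukocytes was deposited by the authors as raw UMI counts per gene and barcode in 1 table for each group. Cell Ranger and GRCm38 were used (tool versions: not given in the sources used here). EdgeR is also named in the submitters' processing notes. Sequence reads were not used. The cells kept were clustered in Seurat 5.3.0 (2000 variable genes less 6 members, 1994 used; 20 components, resolution 0.5, scale factor 1000), and clusters were named from marker lists when at least 3 markers were detected in 10% of cells. Scrublet (Scanpy 1.11.5) called 55 doublets (0.536%), which were kept. UMIs were summed per mouse and compared in edgeR 4.0.16 (TMM, filterByExpr, quasi-likelihood test, Benjamini-Hochberg over all genes tested, threshold 0.05), with the mouse as a block where Tnf+ and Tnf- cells of the same mouse were compared, after removing the Tnf row. Neutrophil clusters with under 20 cells in a mouse were left out of tests between groups (cell classes had no such limit), as were mice with under 5 Tnf+ MDM from the test of MDM. Each standard error was taken as |log2 fold change| over the root of the F statistic. Shares were compared with exact permutation tests in scipy 1.17.1; thinning drew UMIs without replacement (seed 1). The fits were tested on simulated data with 100 genes changed by 1 and 100 by 2 on the log2 scale. Between groups 63 and 96 of them were recovered in neutrophils, and 42 and 90 in MDM. For Tnf+ against Tnf- neutrophils 76 and 98 were recovered. Unchanged genes called numbered 10, 13 and 8 in these 3 fits. Alternatives were DESeq2 1.42.0 and those of the closing section. Upstream sequences are from RefSeq, gene positions and transcripts from GENCODE on GRCm38. Named non-members are the 6 genes of at least 200 UMIs that changed most in each direction, of which the report gives those not described with a list, and the 3 largest called genes of each list. Members, lists and tests were chosen with earlier results of these data known. Suffixes were taken as the 4 labelled mice of each group, and p-values measure the spread between them.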

Additional observations from a re-analysis of the deposited data

Results flagged for a closer look

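In groups of 4 mice a value was looked at again when it stood far from the other 3 by Dixon's criterion, which chance meets in about 1 in 20 groups; it was met 11 times in 126 groups of values. In Ccrl2+ neutrophils, Mono mouse 4 stood apart for Tnf (260 CPM, others 70.1 to 88.1) and for Icam1 (192, others 24.9 to 44.1). In MDM, Bcl2a1b was 145 CPM in Mono+MCTR3 mouse 2 and 0 to 24.4 in the others. In NK cells, Nfkbiz was 151 CPM in Mono mouse 1 (others 51.1 to 67.8) and 242 in Mono+MCTR3 mouse 4 (others 60.1 to 88.2). In T-cells, Tnf was 58.5 CPM in Mono mouse 4 (others 9.51 to 16.0), and Tnfaip2 was 20.4 in Mono+MCTR3 mouse 3 (others 0 to 2.32). In B-cells, Tnf was 4.68 CPM in Mono mouse 3 (others 0) and 23.4 in Mono+MCTR3 mouse 3 (others 0 to 3.66; 8.34 in this mouse without doublets), Tnfaip2 was 43.5 in Mono+MCTR3 mouse 4 (others 5.10 to 7.79), and Bcl2a1b was 60.9 in Mono mouse 3 (others 75.7 to 78.6).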

How the results depend on the processing

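The same 6 genes, Icam1 among them, were called in Tnf+ neutrophils when any mouse was left out, under DESeq2, library totals, no filter, no replicate block, at least 2 Tnf UMIs, and without doublets, haemoglobin-rich cells or the Fcnb+ cluster (the last 2 chosen after seeing the data); the counts under other alternatives are given in the report. The number of genes called over the table was 37 without the replicate block, 304 with no filter on low counts, 27 within Ccrl2+ cells, 19 within Csf3r+ cells and 47 with Tnf- cells matched on cluster, where fewer cells or genes were tested in the last 3. For Tnf+ MDM it ranged from 43 to 142 when a mouse was left out, with 43 when Mono mouse 4 was absent and 67 each when Mono mouse 3 or Mono+MCTR3 mouse 2 was, and the same 4 members throughout. Values under no threshold that changed sign were Nfkb1 in Tnf+ neutrophils (0.031 with library totals, 0.0034 with no replicate block, -0.26 to 0.21 with a mouse left out) and Tnfrsf1b (-0.32 within Csf3r+ cells).

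In Mono+MCTR3 against Mono, none of the 10 genes was called under any alternative run. In neutrophils 1 gene was called by DESeq2 and by the likelihood ratio test, 27 with no filter on low counts, and 0 to 1 with a mouse left out. In MDM the counts were 2, 17 and 81, and 0 to 6. Leaving out a mouse gave 0 to 1 genes in T-cells and Ltf+ cells, 0 to 2 in stefin+ and Csf3r+ cells and 0 to 4 in the test between MDM and neutrophils. With a mouse left out the sign also turned in neutrophils for Bcl2a1b (-0.015 to 0.20), Icam1 (-0.67 to 0.18), Nfkbia (-0.31 to 0.026) and Nfkbiz (-0.32 to 0.22), in Ccrl2+ cells for Tnfaip3 (-0.23 to 0.14) and Tnfrsf1b (-0.070 to 0.11), and in MDM for Nfkbia (-0.68 to 0.069), Rel (-0.17 to 0.16), Tnf (-0.86 to 0.79), Tnfaip2 (-0.19 to 0.24), Tnfaip3 (-0.74 to 0.040) and Tnfrsf1b (-0.32 to 0.072). In MDM, Tnf was -0.045 under DESeq2. Rel turned to 0.0025 under the likelihood ratio test, 0.028 with library totals, 0.0011 without doublets and 0.019 with a mitochondrial limit of 10%, and Tnfaip2 to 0.017 under DESeq2, 0.028 with library totals, 0.0037 without doublets and 0.080 with that limit. Removing doublets moved no mean level of the 10 genes by as much as its SD, but the mean of Tnf in B-cells went from 3.96 to 1.98 CPM (Mono+MCTR3 mouse 3 from 23.4 to 8.34) and that of Icam1 in Ltf+ cells from 0.750 to 0.326, on 8 and 2 UMIs. The cause of these changes was not tested. No dendritic cell cluster other than the plasmacytoid-dendritic-like cells formed, so counting it as MDM was not run. No paired analysis was possible for Mono+MCTR3 against Mono because the suffixes carry no link between the groups. Depth limits Icam1, Rel and Nfkb1 most, with 172, 520 and 543 UMIs in all neutrophils.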
